A study of Mus musculus with 24 samples.

Results

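The hypertrophic zone (HZ) of the mouse growth plate was compared with the proliferative zone (PZ) in wild-type animals, on the 12 arrays of 24 in the series whose labels give a wild-type genotype. Members were taken by the genotype and the zone in the sample labels, 6 HZ arrays and 6 PZ arrays, and no knockout array was used. Each array held RNA of cartilage cut by laser capture from the proximal tibia of a mouse aged 3 days, with sections of 1 animal combined and the zone recognized by its morphology. By the crosses in the methods, wild type refers to Ezh2: these mice kept both working copies of it, but, like the knockouts, carried the Col2-cre transgene (Cre recombinase under the collagen II promoter of cartilage) and lacked Ezh1. The background was mixed and both sexes were used. Values are log2 expression values, where a difference of 1 is a 2-fold change, and every difference is HZ minus PZ.

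In the growth plate, chondrocytes divide in columns in the PZ, then stop dividing, enlarge many times over and change their matrix in the HZ. Cells that begin to enlarge secrete Indian hedgehog, which acts on Ptch1 and the Gli factors of neighbouring cells and maintains parathyroid hormone-related protein, the ligand of Pth1r, in a loop that delays hypertrophy. Enlarged cells make collagen X, mineralize their matrix and attract vessels, osteoclasts and bone-forming cells, which invade from the side of the bone.

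A gene was called where its adjusted p in limma was under 0.05. Of 22180 genes, 7305 (32.9%) were called, 3503 (15.8%) higher and 3802 (17.1%) lower in HZ. The shares of 15.8% and 17.1% are the background for the counts of every list below. A difference of at least 1 log2 was reached by 650 called genes higher in HZ (2.93%) and 1082 lower in HZ (4.88%). The ranges of the 6 HZ and the 6 PZ arrays did not overlap for 1684 genes higher in HZ (7.59%) and 2246 lower in HZ (10.1%). Over all 41345 probe sets, named or not, 29.4% were called, 14.2% higher and 15.2% lower, and 2.41% and 5.64% were higher and lower by at least 1 log2.

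The HZ arrays were less alike than the PZ arrays. Correlations over all probe sets were 0.894 to 0.946 between HZ arrays and 0.954 to 0.974 between PZ arrays, and the middle spread of values on an array (interquartile range) was 1.35 to 1.77 in HZ and 1.79 to 2.02 in PZ, narrowest on HZ arrays 1 and 4. The difference also moved with the mean level of a gene. The median difference was 0.17 over 6943 genes below a mean of 4, and -0.28 over 3271 genes with means of 6 to 8. When the arrays were quantile normalized again, those medians were 0.05 and -0.04. Bright lists are therefore given below beside this shift, whose part in their falls was not tested.

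**Figure D1:**
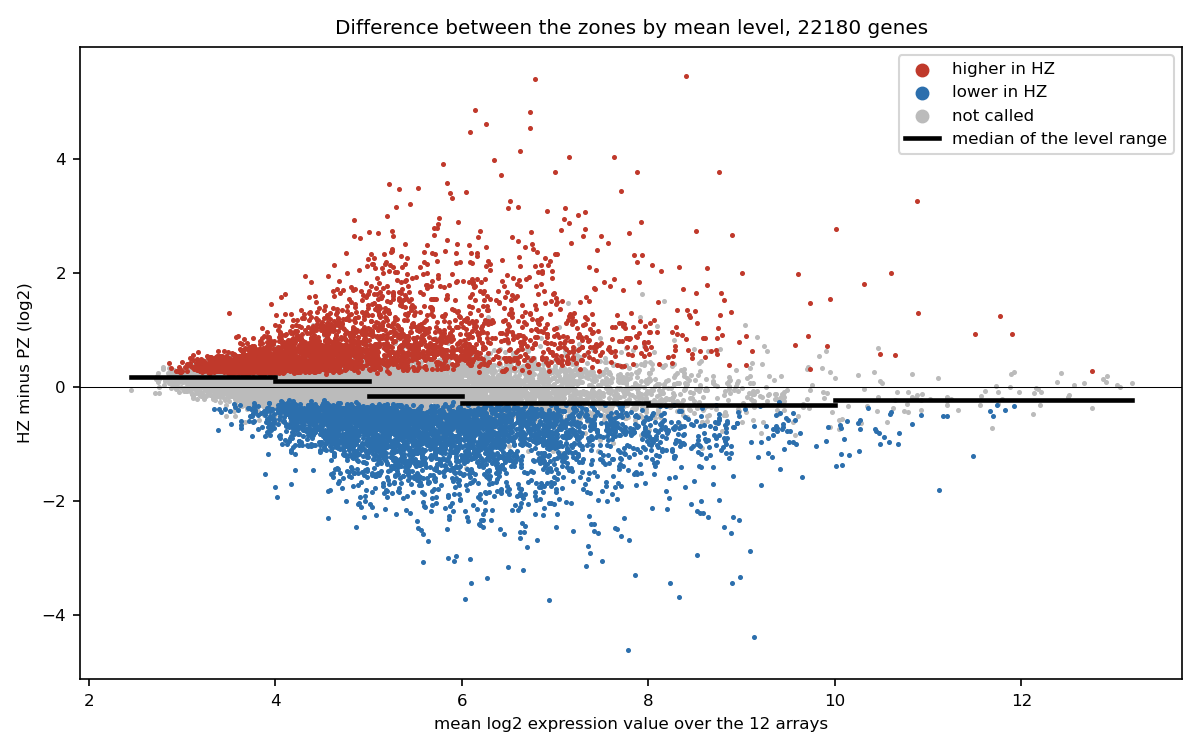
Difference between the zones (HZ minus PZ, log2) against the mean log2 expression value over the 12 arrays for 22180 genes, red where called higher and blue where called lower in HZ, with black lines at the median of each level range. The line lies at 0.17 for the dimmest genes and at -0.28 for means of 6 to 8.

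Cells of bone, marrow and vessels lie next to the HZ, and markers of vessels, osteoclasts and macrophages were higher there, while those of osteoblasts, neutrophils and erythroid cells were mostly not called. Of 15 endothelial markers, 13 were higher in HZ (86.7%, against 15.8% of all genes) and none lower, with a median difference of 1.26. The mean of the list was 4.49 to 6.11 on HZ arrays and 3.88 to 4.71 on PZ arrays. Cdh5, the cadherin of endothelial junctions, was 4.93 to 8.57 in HZ (median 7.68) and 3.60 to 6.12 in PZ (median 3.94), and the sialomucin Emcn was 5.5 to 8.22 in HZ and 3.90 to 5.81 in PZ. Both overlapped between the zones, through HZ array 1, the lowest of HZ, and PZ array 1, the highest of PZ. Of 11 osteoclast markers 7 were higher (63.6%), with a list mean of 5.32 to 6.38 in HZ and 4.15 to 5.74 in PZ. Of 14 macrophage and myeloid markers 10 were higher (71.4%), with a list mean of 5.25 to 5.95 in HZ and 4.08 to 5.5 in PZ. Acp5, the acid phosphatase of osteoclasts, was 6.71 to 8.0 in HZ and 4.31 to 7.66 in PZ, and lost its call without HZ array 3 or 6 or PZ array 5 or 6. Ctsk, their collagen-cleaving cathepsin, was 8.11 to 9.27 in HZ and 5.14 to 9.36 in PZ, a difference that was not called (1.63 ± 0.63 SE, adjusted p = 0.0662). Osteoblast markers were split (2 of 11 higher, 1 lower) and varied widely within both zones, with list means of 6.51 to 7.76 in HZ and 5.90 to 7.79 in PZ. Of 11 neutrophil markers 1 was higher and none lower (list mean 4.64 to 6.44 in HZ and 3.92 to 5.68 in PZ), and of 4 erythroid markers none was called (4.22 to 5.97 in HZ and 4.20 to 5.37 in PZ), with HZ array 1 highest of HZ in the erythroid list and next to highest in the neutrophil list. Muscle markers were called for 1 of 18 genes and their list mean ran from 4.70 to 7.18 in HZ and from 4.47 to 7.04 in PZ. Without HZ array 1 and PZ array 1, 14 endothelial, 8 osteoclast and 10 myeloid markers were higher, and in the fit blocked by number without numbers 3 and 5, which has fewer arrays, 2, 1 and 2 were. In such bulk samples, fewer cells of a type and less RNA per cell cannot be told apart.

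**Figure D2:**
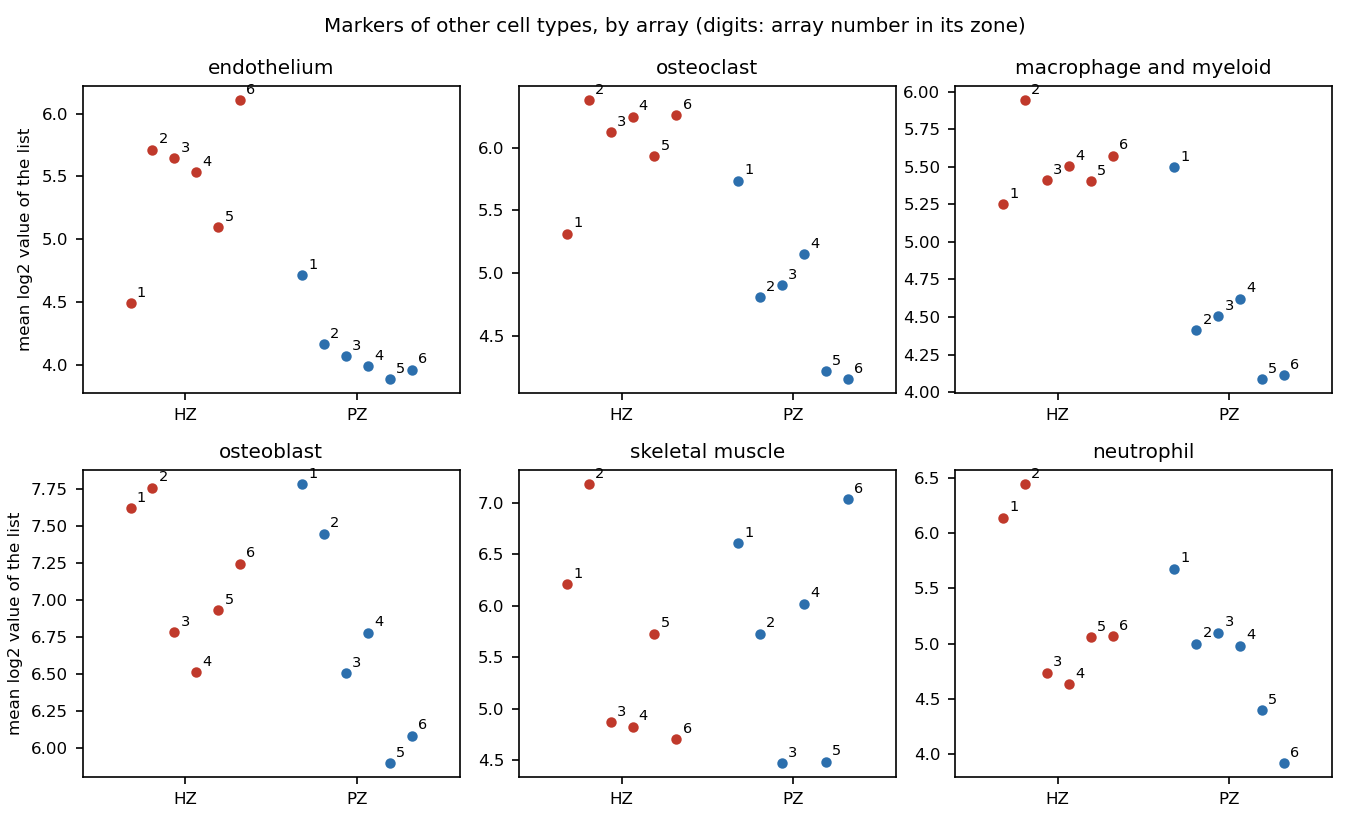
Mean log2 value of 6 lists of markers of other cell types on each of the 6 HZ (red) and 6 PZ (blue) arrays, with the array number beside each point. Endothelial and osteoclast lists are higher on HZ arrays 2 to 6 than on every PZ array, and HZ array 1 lies below PZ array 1 in both.

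The cartilage markers of the zones followed the labels. Col10a1, which encodes the collagen of hypertrophic cartilage, was 12.12 to 12.80 in HZ (median 12.51) and 8.33 to 10.07 in PZ (median 9.37). The groups did not overlap, and the difference was 3.27 ± 0.25 (SE, n = 6 arrays each, adjusted p = 1.21e-06), or 9.64-fold. Alpl, the alkaline phosphatase that frees phosphate for mineral, was 11 to 11.79 in HZ (median 11.40) and 7.88 to 9.31 in PZ (median 8.66), again without overlap and 2.77 ± 0.23 higher (adjusted p = 2.44e-06). Ihh was 7.67 to 8.24 in HZ (median 8.01) and 5.35 to 6.18 in PZ (median 5.91), a difference of 2.14 ± 0.14. Pth1r, the receptor of the opposing signal, was 9.14 to 9.93 in HZ (median 9.63) and 7.82 to 8.48 in PZ (median 8.28), a difference of 1.32 ± 0.15. Every HZ array lay above every PZ array for both genes. The division markers ran the other way. Mki67, the Ki-67 antigen, was 5.43 to 7.25 in HZ (median 5.88) and 7.59 to 8.03 in PZ (median 7.75), and Top2a, the topoisomerase of dividing cells, was 4.95 to 6.65 in HZ (median 5.55) and 7.37 to 7.89 in PZ (median 7.63). HZ arrays 1 and 2 had the highest values of both genes within HZ and still lay below all PZ arrays.

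**Figure D3:**
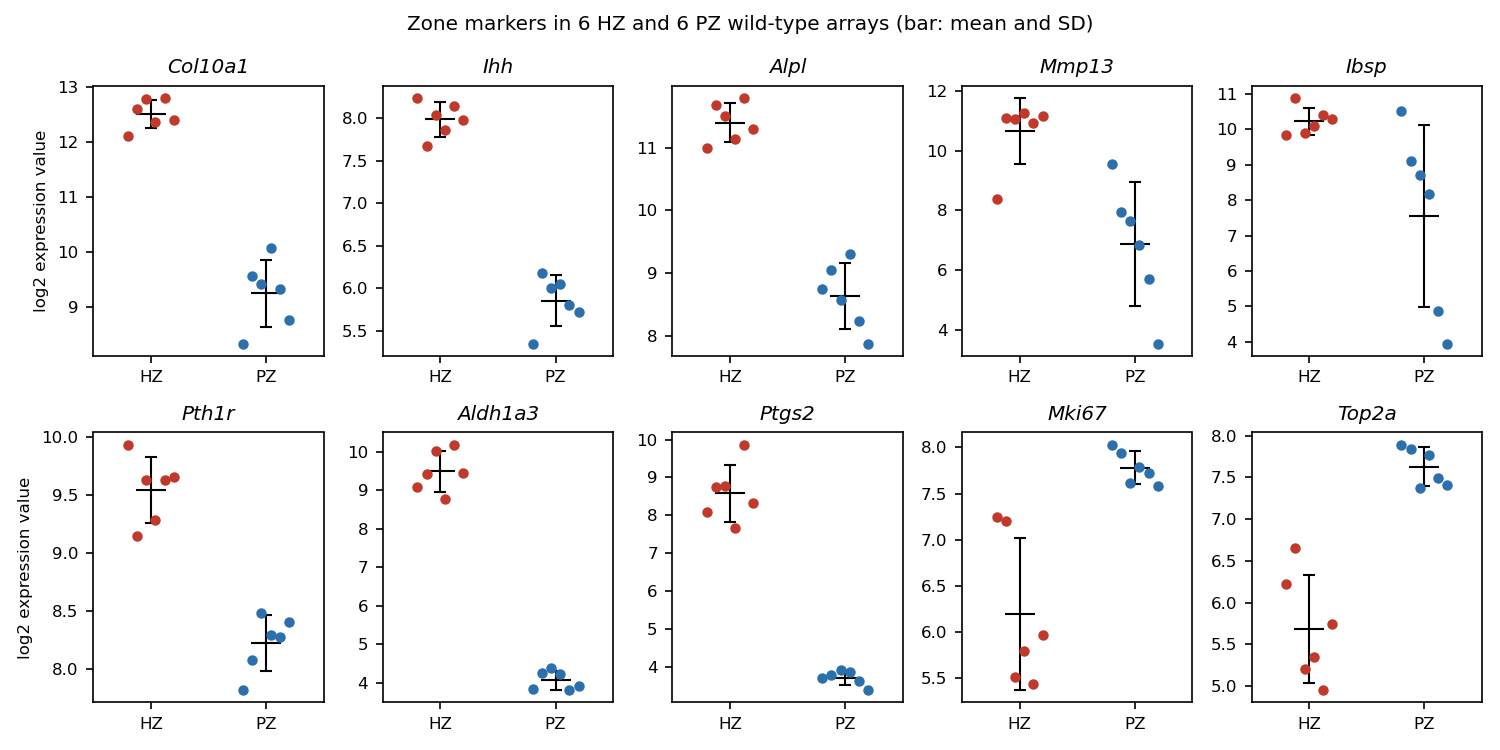
Log2 expression values of the 10 zone markers on the 6 HZ (red) and 6 PZ (blue) arrays, with the mean and SD of each zone in black. Mmp13 overlaps between the zones through HZ array 1 (8.39) and PZ array 1 (9.54), and Ibsp through PZ array 1 (10.53). The other 8 markers do not overlap.

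Mineral and bone matrix genes that bone cells share were less clean. Mmp13, the collagenase of late hypertrophic cells and osteoblasts, was 8.39 to 11.26 in HZ (median 11.09) and 3.53 to 9.54 in PZ (median 7.24), a difference of 3.79 ± 0.84 (adjusted p = 0.00467). Ibsp, bone sialoprotein, was 9.84 to 10.88 in HZ (median 10.20) and 3.95 to 10.53 in PZ (median 8.45), a difference of 2.68 ± 0.93 (adjusted p = 0.0456). PZ array 1 had the highest PZ value of both, and PZ arrays 5 and 6 the lowest of Ibsp. For Mmp13, HZ array 1 was the lowest of HZ, and the other HZ arrays lay above all PZ arrays. The call of Ibsp was lost in 9 of the 12 fits that leave out an array, that of Mmp13 in none. Col1a1, the collagen of bone and fibrous tissue, was 7.77 to 10.44 in HZ and 6.51 to 10.60 in PZ and was not called (0.67 ± 0.69, adjusted p = 0.471). PZ array 1 was also the highest of PZ in the endothelial and osteoclast lists, and the part of such cells in these values was not tested.

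Among 24 genes of hypertrophic matrix and mineralization, 9 were higher and 4 lower in HZ, against 15.8% and 17.1% of all genes, with a median difference of 0.30 against 0.09 over all genes. Phex, an endopeptidase of phosphate balance, was 7.83 to 8.24 in HZ (median 7.94) and 4.22 to 7.46 in PZ (median 5.34), with PZ array 1 again highest of its zone and no overlap. Ank, the pyrophosphate transporter that holds mineral back, was 6.66 to 7.74 in HZ and 5.35 to 5.90 in PZ, 1.67 ± 0.17 higher. Ppa1, which hydrolyses pyrophosphate, was 6.79 to 8.36 in HZ and 8.41 to 9.63 in PZ, a difference of -1.41 ± 0.29, and the phosphate carrier Slc20a2 differed by -0.60 ± 0.15. Mgp, matrix Gla protein and an inhibitor of mineralization, was 10 to 12.12 in HZ and 10.76 to 12.03 in PZ and was not called (-0.16 ± 0.33, adjusted p = 0.733), and neither was the channel protein Panx3 (-0.19 ± 0.15, adjusted p = 0.352).

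The Hedgehog loop was split between its source and its targets. Of 17 genes of Hedgehog and PTHrP signalling, 4 were higher (23.5%) and 10 lower (58.8%) in HZ, with a median difference of -0.40. The shares of all genes were 15.8% and 17.1%. The median level of the list was 5.32, and of all genes of levels 5 to 6, 16.2% were higher and 33.4% lower. Gli1, a target and effector of the pathway, was 4.08 to 4.80 in HZ (median 4.69) and 7.63 to 8.27 in PZ (median 7.88), a difference of -3.36 ± 0.15 (adjusted p = 1.89e-08), or 10.3-fold lower. Ptch1, the receptor of Ihh and itself a target, was 7.0 to 7.73 in HZ (median 7.50) and 9.42 to 9.72 in PZ (median 9.60), 4.53-fold lower. Neither overlapped between zones. The ligand did not overlap either but ran the other way, with its 6 HZ values all above PZ. Gli2 (-1.15 ± 0.13), Gli3 (-0.93 ± 0.14) and Scube2, which helps to release Hedgehog ligands from cells (-1.52 ± 0.15), were also lower without overlap. Disp1, the transporter that lets Hedgehog ligand leave the cell, was 7.68 to 8.84 in HZ and 5.85 to 6.97 in PZ, 1.75 ± 0.21 higher, so it was raised in the same zone as Ihh. Hhip, a target that binds the ligand, was 3.74 to 4.58 in HZ and 3.75 to 4.41 in PZ and was not called (-0.08 ± 0.16, adjusted p = 0.73).

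Of 33 transcription factors of chondrocytes, 13 were higher (39.4%) and 10 lower (30.3%), with a median difference of 0.04. The shares of all genes were 15.8% and 17.1%. The median level of the list was 6.05, and of all genes of levels 6 to 8, 15.5% were higher and 38.2% lower. The share lower was thus not above that of its level range. The Sox trio that drives the early cartilage program was lower in HZ. Sox5 was 4.75 to 6.65 in HZ (median 6.01) and 7.57 to 7.92 in PZ (median 7.67), and Sox6 was 6.71 to 7.63 in HZ and 8.16 to 8.56 in PZ. Sox9 was 8.61 to 9.94 in HZ and 9.85 to 10.19 in PZ, overlapping only through HZ array 1, with a difference of -0.97 ± 0.20 (adjusted p = 0.00269). The Mef2 factors, which promote hypertrophy, were higher. Mef2d was 9.0 to 9.37 in HZ and 6.96 to 7.25 in PZ, 2.03 ± 0.09 higher, Mef2c was 11.08 to 11.87 in HZ and 9.99 to 10.44 in PZ, 1.3 ± 0.13 higher, and Mef2a was 0.89 ± 0.14 higher. Hdac4, which holds Mef2 factors back, was 5.39 to 6.00 in HZ and 6.13 to 6.45 in PZ, a difference of -0.61 ± 0.12. Genes of the Runx family moved in opposite directions. Runx1 was 5.02 to 6.34 in HZ and 4.04 to 4.73 in PZ, 1.64 ± 0.20 higher, and Runx3 was 4.86 to 6.02 in HZ and 7.04 to 7.61 in PZ, -1.80 ± 0.18.

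The hypoxia factors diverged as well. Epas1, which encodes HIF-2 alpha, was 6.42 to 8.39 in HZ (median 7.91) and 3.86 to 5.0 in PZ (median 4.27), 3.43 ± 0.30 higher (adjusted p = 3.55e-06), with HZ array 1 the lowest of HZ and PZ array 1 the highest of PZ. Endothelium also expresses Epas1, and the part of the endothelial markers in this difference was not tested. Hif1a was 6.74 to 8.06 in HZ and 7.78 to 8.61 in PZ, a difference of -0.78 ± 0.23 (adjusted p = 0.0227), and lost its call without HZ array 4, alone or together with HZ array 1. Fosl2, an AP-1 factor, was 1.80 ± 0.17 higher, the homeobox gene Dlx3 was 1.54 ± 0.19 higher, and its relative Dlx5 was 7.14 to 8.06 in HZ and 8.49 to 8.89 in PZ (-1.13 ± 0.17). Nkx3-2 (-1.43 ± 0.13), which represses hypertrophy, Shox2 (-1.64 ± 0.13), a limb homeobox gene, and Sp7 (-0.59 ± 0.14), the osteoblast factor osterix, were lower without overlap. Sp7 was not called after quantile normalization.

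The cartilage matrix list fell as a group, but not its most familiar members. Of 35 genes, 19 were lower and 1 higher, with a median difference of -0.73. The median level of the list was 8.91, in a level range (8 to 10) where the median of all genes was -0.32. Ucma, a small matrix protein of early cartilage, was 4.65 to 6.75 in HZ (median 5.32) and 9.34 to 10.47 in PZ (median 10.17), 24.7-fold lower. Prelp, a leucine-rich proteoglycan, was 5.32 to 8.31 in HZ (median 6.91) and 10.86 to 11.63 in PZ (median 11.36), 21.1-fold lower. For both, the highest HZ array was array 1 and the lowest PZ array was array 1, and the zones did not overlap. Scrg1 (-3.34 ± 0.35), the small proteoglycans Fmod (-2.94 ± 0.29) and Epyc (-2.56 ± 0.34), chondromodulin Cnmd (-1.80 ± 0.24), Col9a1 (-1.19 ± 0.14), Matn1 (-1.24 ± 0.16) and Matn3 (-1.18 ± 0.22) were lower without overlap. Col2a1, the main collagen of cartilage, was 11.10 to 11.95 in HZ (median 11.59) and 11.43 to 11.81 in PZ (median 11.64), and Acan, its main proteoglycan, was 11.83 to 12.24 in HZ (median 11.99) and 11.58 to 11.86 in PZ (median 11.81). Neither was called (-0.07 ± 0.13, adjusted p = 0.68, and 0.23 ± 0.09, adjusted p = 0.077), and Comp (-0.21 ± 0.15) and Hapln1 (-0.40 ± 0.20) were not called either. Col6a2, a chain of the collagen around cells, was the only list member called higher, at 7.95 to 8.82 in HZ and 6.75 to 7.64 in PZ.

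Of 41 enzymes that make and sulphate the chains of proteoglycans, 16 were lower (39%) and 8 higher (19.5%). Their median difference was -0.34 at a median level of 5.52. Among all genes of levels 5 to 6, 33.4% were lower and 16.2% higher, with a median of -0.16, so the list lay near its level range. Papss2, which makes the sulphate donor, was 6.40 to 8.26 in HZ (median 7.75) and 9.68 to 10.18 in PZ (median 10.09), 5.51-fold lower. Its paralog Papss1 was 4.26 to 5.10 in HZ and 6.05 to 6.76 in PZ, and the sulphate carrier Slc26a2 was 5.89 to 7.01 in HZ and 8.01 to 8.60 in PZ. The zones did not overlap for these 3 genes. Chst11, the chondroitin sulphotransferase, was 6.83 to 7.84 in HZ and 9.37 to 9.93 in PZ, 4.89-fold lower. Csgalnact1, which starts chondroitin chains, differed by -1.90 ± 0.16. Among the 8 that were higher, Sulf1, an enzyme outside the cell that removes sulphate from heparan chains, was 7.85 to 9.24 in HZ (median 8.77) and 4.25 to 4.95 in PZ (median 4.52), 17.7-fold higher (adjusted p = 6.35e-08). Hpse, the heparanase that cuts the same chains, was 6.38 to 9.11 in HZ (median 8.73) and 4.05 to 5.48 in PZ (median 4.38), 3.73 ± 0.44 higher.

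Of 37 matrix proteases and inhibitors, 10 were higher (27%) and 5 lower (13.5%), against 15.8% and 17.1% of all genes. Mmp9, the gelatinase of osteoclasts and late chondrocytes, was 6.91 to 10.40 in HZ (median 9.77) and 3.97 to 7.72 in PZ (median 6.21), overlapping through HZ array 1 and PZ array 1. Mmp2 was 5.84 to 7.53 in HZ and 8.32 to 9.62 in PZ, 4.91-fold lower and without overlap. Adamts1 (1.91 ± 0.23), an aggrecan-cleaving protease, Mmp10 (1.88 ± 0.32) and Timp3 (1.90 ± 0.23), an inhibitor of such enzymes, were higher without overlap. When each gene was taken as the mean of its probe sets, 16 of the proteases were higher, and 4 were in the fit blocked by number without numbers 3 and 5. Loxl4, a lysyl oxidase that crosslinks collagen, was 9.30 to 10.22 in HZ and 5.47 to 6.38 in PZ, 3.78 ± 0.21 higher, and Plod2, the lysyl hydroxylase for collagen telopeptides, was 6.52 to 8.18 in HZ and 9.94 to 10.75 in PZ, 7.34-fold lower.

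Of the lists, mitosis moved most uniformly. Of 47 mitotic genes 46 were lower (97.9%, against 17.1% of all genes) and none higher, with a median difference of -1.23. The zones did not overlap for 36 of them, while 10.1% of all genes were lower without overlap. Anln, a scaffold of the cleavage furrow, was 4.53 to 5.27 in HZ (median 4.67) and 6.66 to 7.04 in PZ (median 6.97), 4.28-fold lower (adjusted p = 6.94e-07). Cdk1, the kinase that starts mitosis, was 4.07 to 6.12 in HZ (median 5.53) and 6.48 to 7.20 in PZ (median 6.75), and its cyclin Ccnb2 was 5.67 to 7.22 in HZ (median 6.33) and 7.55 to 8.16 in PZ (median 7.85). The highest HZ values of Cdk1 and Ccnb2 were on array 1. The kinesins Kif15 (-1.93 ± 0.23) and Kif23 (-1.87 ± 0.11), the spindle midzone protein Prc1 (-1.87 ± 0.19) and the kinetochore protein Nuf2 (-1.85 ± 0.19) were lower without overlap. Ube2c, which marks cyclins for destruction, was the exception at 5.24 to 8.32 in HZ, with array 1 highest, and 6.59 to 7.99 in PZ (-0.81 ± 0.50, adjusted p = 0.228).

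Many promoters of mitotic genes hold CCAAT boxes, bound by NF-Y, and the cell cycle homology region (CHR). In the 250 bases before the start site in RefSeq (GRCm38.p6), CCAAT or its reverse complement ATTGG stood in 77.5% of 40 promoters of 38 of these genes and in 33.8% of all 32851 promoters. The CHR letters TTTGAA, or TTCAAA, stood in 35% of the 40 and in 16% of all. Both motifs stood in 30% of the 40 and in 5.55% of all. A match is a description of the letters only, and overlapping matches of the motifs were allowed. The 4 stretches below are picked examples, and that of Ccnb2 holds CCAAT boxes but no CHR letters. The 150 bases upstream of 4 genes that fell are shown for how densely these motifs lie, with all matches of both motifs in capitals, 5′ to 3′ on the gene's strand, the minus strand in each case: Cdk1 at chr10:69352913-69353062, Ccnb2 at chr9:70421555-70421704, Top2a at chr11:99024200-99024349 and Mki67 at chr7:135716451-135716600.
Cdk1: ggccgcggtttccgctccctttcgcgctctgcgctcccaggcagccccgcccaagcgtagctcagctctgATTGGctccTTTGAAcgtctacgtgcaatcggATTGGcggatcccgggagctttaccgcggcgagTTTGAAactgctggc
Ccnb2: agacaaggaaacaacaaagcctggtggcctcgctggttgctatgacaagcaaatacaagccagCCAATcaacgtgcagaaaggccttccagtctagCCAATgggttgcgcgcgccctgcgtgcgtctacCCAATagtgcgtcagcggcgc
Top2a: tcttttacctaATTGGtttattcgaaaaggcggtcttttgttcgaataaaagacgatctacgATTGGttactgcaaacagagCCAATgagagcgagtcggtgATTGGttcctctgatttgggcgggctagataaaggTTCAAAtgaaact
Mki67: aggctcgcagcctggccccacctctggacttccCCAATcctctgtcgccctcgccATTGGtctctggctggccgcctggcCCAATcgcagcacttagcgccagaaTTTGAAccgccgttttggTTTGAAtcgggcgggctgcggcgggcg

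Genes of DNA replication were lower less evenly, 28 of 48 (58.3%) with none higher and a median difference of -0.56. Their median level was 5.19, and 33.4% of all genes of levels 5 to 6 were lower. Pold2, a subunit of polymerase delta, was 4.76 to 6.29 in HZ (median 5.58) and 6.50 to 7.65 in PZ (median 7.0), 2.89-fold lower. The chromatin assembly factor Chaf1a (-1.31 ± 0.13), the catalytic subunit of polymerase epsilon Pole (-1.24 ± 0.13, its other probe set -0.26 and not called) and the fork protein Tipin (-1.49 ± 0.27) were lower without overlap. Pcna, the sliding clamp, was 6.32 to 7.60 in HZ and 7.13 to 7.85 in PZ and was not called (-0.60 ± 0.22, adjusted p = 0.0513). CCAAT or ATTGG stood in 57.8% of 45 promoters of replication genes, and TTTGAA or TTCAAA in 11.1% of them, against 33.8% and 16% of all promoters.

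Among 22 G1 regulators 12 were lower (54.5%) and 3 higher (13.6%), against 17.1% and 15.8% of all genes. Their median level was 5.58, and of all genes of levels 5 to 6, 33.4% were lower and 16.2% higher. Ccnd2, a D-type cyclin, was 5.32 to 6.73 in HZ (median 5.79) and 7.24 to 8.50 in PZ (median 7.43), Ccnd1 differed by -1.15 ± 0.22 and their partner Cdk4 by -1.31 ± 0.23, all without overlap. Inhibitors of the kinases moved apart. Cdkn1c, which encodes p57, was 8.14 to 8.94 in HZ (median 8.48) and 6.41 to 7.80 in PZ (median 7.46), 2.24-fold higher. Cdkn1a, which encodes p21, was 7.59 to 8.87 in HZ and 6.40 to 7.83 in PZ, 1.26 ± 0.27 higher with overlap. Cdkn2c, which encodes p18, was 4.71 to 4.95 in HZ and 6.02 to 6.32 in PZ, 2.47-fold lower. Cdkn2a (3.91 to 4.37 in HZ, 3.82 to 4.19 in PZ) and Cdkn2b (4.32 to 5.08 in HZ, 4.38 to 4.54 in PZ) were not called (0.16 ± 0.10 and 0.21 ± 0.13). The retinoblastoma gene Rb1 gave no single direction, since its brightest probe set was higher (1.10 ± 0.23) and its other probe set lower (-1.0, adjusted p = 0.00541).

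Ezh2, the methyltransferase that the wild-type mice kept, was 5.88 to 6.6 in HZ (median 6.28) and 6.88 to 7.27 in PZ (median 7.15), a difference of -0.82 ± 0.12 (adjusted p = 0.000273) without overlap. Among its partners in the Polycomb complex PRC2, Eed (-0.83 ± 0.13), Suz12 (-0.88 ± 0.19) and Rbbp7 (-1.27 ± 0.12) were lower without overlap. Of the 11 genes of this list, 4 were lower (36.4%), 1 was higher (9.09%) and 6 were not called. The list had a median difference of -0.20 at a median level of 6.14. Of all genes of levels 6 to 8, 38.2% were lower and 15.5% higher, with a median of -0.28. Ezh1, which these mice lack, was 4.35 to 4.88 in HZ and 4.51 to 4.59 in PZ and was not called (0.07 ± 0.09), and whether its probes lie in the deleted part was not examined here.

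Different BMP ligands were higher in each zone. Bmp6 was 8.96 to 9.56 in HZ (median 9.08) and 4.58 to 5.35 in PZ (median 5.23), 16.4-fold higher (adjusted p = 5.75e-09), and Bmp2 was 7.01 to 8.31 in HZ (median 7.63) and 3.67 to 4.53 in PZ (median 4.16), 10.7-fold higher. Neither gene overlapped between zones. Bmp8a (1.94 ± 0.10) and Tgfb3 (2.45 ± 0.22) were also higher without overlap. In the other direction, Bmp7 was 4.29 to 4.98 in HZ and 6.11 to 7.13 in PZ, Bmp5 was 4.15 to 5.05 in HZ and 5.07 to 6.66 in PZ, and Gdf10, a related ligand of early cartilage, was 4.70 to 5.25 in HZ (median 4.87) and 7.51 to 8.30 in PZ (median 8.14), 8.95-fold lower. The receptor Bmpr1a was 5.03 to 6.10 in HZ and 6.26 to 7.26 in PZ (-1.22 ± 0.21), and the inhibitory Smad7 was 1.53 ± 0.17 higher. Over the 47 genes of BMP and TGF-beta signalling, 15 were higher (31.9%) and 12 lower (25.5%), with a median difference of 0.01. The shares of all genes were 15.8% and 17.1%. The median level of the list was 5.53, and of all genes of levels 5 to 6, 16.2% were higher and 33.4% lower. The share lower was thus not above that of its level range.

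The FGF receptors moved in opposite directions. Fgfr1 was 8.30 to 9.21 in HZ (median 8.77) and 5.41 to 6.05 in PZ (median 5.73), 8.12-fold higher (adjusted p = 1.35e-07). Fgfr2 was 3.92 to 4.71 in HZ (median 4.20) and 5.75 to 6.68 in PZ (median 6.03), 3.64-fold lower, and the decoy-like Fgfrl1 was 2.29-fold lower. Fgfr3, the receptor that restrains growth, was 7.46 to 8.08 in HZ and 8.02 to 8.40 in PZ, a smaller difference of -0.52 ± 0.13 with overlap through HZ array 1, and it lost its call when the arrays were quantile normalized again and in the fit blocked by number without numbers 3 and 5. Dusp6, a phosphatase induced by this pathway, was 5.46 to 9.96 in HZ (median 9.32) and 4.87 to 7.76 in PZ (median 6.39), overlapping through HZ array 1. HZ array 1 was lowest of HZ and PZ array 1 highest of PZ, as in the endothelial list. The part of vascular and marrow cells in Dusp6 was not tested. Spry4, an inhibitor of the pathway, was 1.68 ± 0.27 higher. In all, 9 of 22 genes were higher (40.9%) and 4 lower (18.2%), against 15.8% and 17.1% of all genes.

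Of 51 Wnt genes 11 were higher (21.6%) and 16 lower (31.4%), against 15.8% and 17.1% of all genes, with secreted modulators on both sides. Frzb, a secreted Wnt binder, was 7.0 to 9.06 in HZ (median 8.12) and 4.55 to 5.40 in PZ (median 4.93), 8.89-fold higher. Tcf7l2, a transcription factor of the pathway, was 8.62 to 9.85 in HZ and 6.31 to 6.66 in PZ, 7.43-fold higher. Sfrp5, another Wnt binder, was 2.90 to 3.25 in HZ and 4.38 to 5.49 in PZ, 3.38-fold lower. It is also a resting zone marker, a list in which 4 of 16 genes were higher and 5 lower. In the R-spondin system, the receptor Lgr6 was 6.96 to 7.68 in HZ and 4.10 to 4.87 in PZ (7.42-fold higher), its relative Lgr4 was 5.76 to 6.47 in HZ and 7.31 to 8.12 in PZ (3.07-fold lower), and the ligand Rspo3 was 5.21 to 5.82 in HZ and 7.53 to 8.42 in PZ (5.86-fold lower). Ror2, a receptor of Wnt5a, was 4.52 to 4.95 in HZ and 6.03 to 6.62 in PZ.

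In the IGF system Igf2 and both IGF receptors were lower in HZ. Igf2 was 7.80 to 8.24 in HZ (median 7.94) and 8.73 to 9.32 in PZ (median 9.18), 2.2-fold lower (adjusted p = 2.09e-05). Igf1r differed by -0.76 ± 0.14 and Igf2r, which clears Igf2, was 5.43 to 6.52 in HZ and 7.17 to 8.48 in PZ, 4.38-fold lower. Igf1 was 4.85 to 5.75 in HZ and 4.65 to 6.45 in PZ, with PZ array 1 highest, and was not called (0.22 ± 0.29). The adaptor Irs1 was 5.03 to 6.75 in HZ and 7.83 to 8.43 in PZ, 4.12-fold lower, and its relative Irs2 was 7.39 to 8.28 in HZ and 6.26 to 6.75 in PZ, 2.82-fold higher. The binding protein Igfbp3 was 5.25 to 6.72 in HZ and 4.12 to 5.71 in PZ, 1.41 ± 0.30 higher with overlap, and Igfbp5 was not called (0.41 ± 0.32, adjusted p = 0.341). Socs2, an inhibitor of growth hormone signalling, was 1.22 ± 0.14 higher without overlap. Counts were 8 higher (30.8%) and 7 lower (26.9%) of 26, against 15.8% and 17.1% of all genes. At the median level of the list, 5.18, the share lower was not above its level range. Of all genes of levels 5 to 6, 16.2% were higher and 33.4% lower.

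C-type natriuretic peptide promotes growth of cartilage through Npr2 and cyclic GMP. Npr3, the receptor that clears the peptide, was 7.87 to 8.92 in HZ (median 8.21) and 3.62 to 4.12 in PZ (median 3.81), 22.4-fold higher (adjusted p = 5.77e-09). Prkg1, a kinase activated by cyclic GMP, was 8.69 to 9.18 in HZ (median 8.82) and 5.09 to 6.24 in PZ (median 5.88), 8.43-fold higher, and Pde5a, which breaks cyclic GMP down, was 1.08 ± 0.16 higher. The signalling receptor Npr2 was 6.18 to 6.74 in HZ and 6.37 to 6.82 in PZ and was not called (-0.11 ± 0.12, adjusted p = 0.514). Of the 9 genes 6 were higher (66.7%, against 15.8% of all genes) and none lower.

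Among the named genes, the largest difference apart from H2-Q10 belonged to the synthesis of retinoic acid. Aldh1a3, which makes retinoic acid from retinal, was 8.77 to 10.18 in HZ (median 9.44) and 3.81 to 4.39 in PZ (median 4.08), a difference of 5.42 ± 0.22 or 42.7-fold (adjusted p = 1.27e-08). Dhrs9, which acts on retinol one step earlier, was 4.28 to 6.12 in HZ and 3.56 to 3.82 in PZ, 1.49 ± 0.26 higher. Cyp26b1, which degrades retinoic acid, was 4.05 to 4.22 in HZ and 4.61 to 4.90 in PZ (-0.60 ± 0.09), without overlap of the zones. The other enzymes of breakdown did not follow it: Cyp26a1 was 3.51 to 3.82 in HZ and 3.12 to 3.504 in PZ, 0.33 ± 0.09 higher (adjusted p = 0.0191) but not called after quantile normalization or without HZ arrays 1 and 4, and Cyp26c1 was not called (0.03 ± 0.10, adjusted p = 0.821). The receptor Rarb, itself induced by retinoic acid, was 4.13 to 5.57 in HZ and 3.79 to 4.37 in PZ, 0.99 ± 0.22 higher with overlap through HZ array 1. Over the list 7 of 20 were higher (35%) and 1 lower (5%), against 15.8% and 17.1% of all genes.

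Genes of prostaglandin handling were higher at several steps. Ptgs2, the inducible cyclooxygenase, was 7.66 to 9.86 in HZ (median 8.54) and 3.38 to 3.90 in PZ (median 3.75), 29.2-fold higher (adjusted p = 1.6e-07). Pla2g4a, the phospholipase that frees arachidonic acid, was 2.12 ± 0.20 higher, and Ptgis, the prostacyclin synthase, was 8.46 to 8.81 in HZ and 5.20 to 6.07 in PZ, 7.34-fold higher. The enzyme Hpgd, which inactivates prostaglandins, was 8.16 to 9.11 in HZ (median 8.55) and 4.18 to 7.43 in PZ (median 5.71), and Slco2a1, which carries them into cells, was 2.21 ± 0.31 higher. PZ array 1 was the highest of PZ for Hpgd, Ptgis and Slco2a1. Alox12, a lipoxygenase that uses the same acid, was 7.13 to 8.28 in HZ and 3.88 to 4.21 in PZ, 11.9-fold higher. Of 18 genes 6 were higher (33.3%) and 1, Ptges3, lower (5.56%), against 15.8% and 17.1% of all genes. Vessels and marrow cells also express several of these genes. Their part in these values was not tested. Without HZ array 1 and PZ array 1, 19 immediate early, 8 retinoic acid and 6 prostaglandin genes were called higher and 45 mitotic genes lower.

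Of 24 immediate early genes, which respond within minutes to growth factors and stress, 19 were higher and 1 lower in HZ, with a median difference of 1.07, and the mean of the list was 5.92 to 6.79 on HZ arrays and 5.32 to 5.58 on PZ arrays. Atf3 was 6.57 to 7.43 in HZ (median 7.20) and 4.15 to 4.52 in PZ (median 4.25), 6.91-fold higher. Zfp36, which destabilizes cytokine messages, was 6.63 to 8.73 in HZ and 5.07 to 5.90 in PZ, and the AP-1 subunits Junb (1.99 ± 0.23) and Fos (1.77 ± 0.27) were higher without overlap. HZ array 1 was the lowest of HZ for Atf3, Zfp36 and Junb, as for the endothelial list, and the part of vascular and marrow cells was not tested. Myc was the gene that ran the other way, at 5.31 to 6.18 in HZ (median 6.10) and 7.89 to 8.21 in PZ (median 7.97), 4.13-fold lower (adjusted p = 6.99e-07).

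Of 28 genes of survival and death, 9 were higher (32.1%, against 15.8% of all genes) and 4 lower (14.3%, against 17.1% of all genes). Bcl2l11, which encodes the death-promoting Bim, was 5.04 to 6.30 in HZ and 3.91 to 4.29 in PZ, 3.54-fold higher. The protective Bcl2l1 was 6.10 to 6.6 in HZ and 5.16 to 5.58 in PZ, 2.08-fold higher, and the protective Bcl2 was 5.29 to 6.98 in HZ and 7.33 to 7.65 in PZ, 2.10-fold lower, though its other probe set was not called (-0.58). Of 23 angiogenic and osteoclastogenic factors 9 were higher (39.1%) and 4 lower (17.4%), against 15.8% and 17.1% of all genes. Vegfa, which attracts vessels, was 9.06 to 9.90 in HZ (median 9.58) and 7.36 to 8.20 in PZ (median 7.74), 3.48-fold higher without overlap, and Csf1, the growth factor of osteoclast precursors, was 4.88 to 6.93 in HZ and 3.77 to 4.58 in PZ, 3.99-fold higher. Tnfsf11, which encodes RANKL, was 3.58 to 4.83 in HZ and 3.41 to 4.01 in PZ, 0.78 ± 0.19 higher with overlap through HZ array 1.

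Glycolysis and the response to low oxygen fell as a list, with 18 of 31 genes lower and 4 higher and a median difference of -0.55, at a median level of 6.57 where all genes of levels 6 to 8 had a median of -0.28. Pdk1, the kinase that keeps pyruvate out of mitochondria, was 4.67 to 5.77 in HZ (median 5.37) and 7.67 to 8.45 in PZ (median 8.19), 7.02-fold lower. The oxygen sensor Egln1 was 5.16 to 6.05 in HZ and 6.77 to 7.84 in PZ, and Ndufa4l2, a mitochondrial protein induced by low oxygen, was 5.19 to 7.14 in HZ and 8.22 to 9.18 in PZ, 6.96-fold lower. Vegfa and Adm (1.45 ± 0.12), which are also induced by low oxygen, were higher. The glucose carrier Slc2a1 was not called (0.41 ± 0.15, adjusted p = 0.0554). The secretory list showed 17 of 36 genes lower (47.2%) and 2 higher (5.56%), with a median difference of -0.52. Its median level was 7.10, in the same level range, where 38.2% of all genes were lower and 15.5% higher. Lower in HZ were Creb3l2, a factor that expands the secretory machinery for matrix (5.67 to 6.68 in HZ, 7.44 to 8.24 in PZ), the collagen chaperone Serpinh1 (6.25 to 7.15 in HZ, 7.87 to 8.48 in PZ) and Tram2 (-2.04 ± 0.27). Of 29 cytosolic ribosomal proteins 19 were lower and none higher, with a median difference of -0.56 at a median level of 8.56, where all genes of levels 8 to 10 had a median of -0.32. Rpl3 had the largest of these differences (-2.21 ± 0.21), but its other probe sets gave -0.69 and -0.39, the second not called. Oxidative phosphorylation stood apart from these lists, with 4 of 42 genes lower and 1 higher, shares below the 17.1% and 15.8% of all genes.

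Ion and solute transport, which takes part in cell swelling, held 11 genes higher and 11 lower of 39 (12 and 7 after quantile normalization). Piezo1, a stretch-gated channel, was 8.80 to 9.33 in HZ (median 9.16) and 6.64 to 6.97 in PZ (median 6.74), 5.01-fold higher (adjusted p = 3.5e-08). Ano1, a chloride channel opened by calcium, was 5.88 to 7.06 in HZ and 3.73 to 4.41 in PZ, the calcium pump Atp2b4 was 2.49 ± 0.20 higher, the sodium pump subunit Atp1b3 was 2.01 ± 0.27 higher and the amino acid carrier Slc38a2 was 1.81 ± 0.10 higher. Wnk4, a kinase that controls chloride cotransport, was 8.92 to 10.03 in HZ (median 9.71) and 5.41 to 5.91 in PZ (median 5.57), 16.5-fold higher. The potassium channel Kcnma1 was 6.04 to 7.44 in HZ and 8.21 to 8.83 in PZ, 3.40-fold lower, with a dim second probe set not called (0.15). Fxyd6, a regulator of the sodium pump, was 3.23-fold lower.

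Runx2, Pthlh and Spp1, key genes of these pathways, had no probe set with a gene symbol of their own and are not given. The 20 largest rises and the 20 largest falls among genes without overlap hold further genes outside these groups. Predicted genes, microRNAs, small nucleolar RNAs and similar classes were left out of this ranking. Anxa3, an annexin that binds membranes with calcium, was 8.75 to 9.36 in HZ (median 9.24) and 3.74 to 4.92 in PZ (median 4.34), 28.5-fold higher. Cds1, which makes the lipid precursor of phosphoinositides, was 8.30 to 8.78 in HZ and 3.59 to 4.34 in PZ, 24.7-fold higher, and the kinase Plk2 was 8.12 to 9.86 in HZ and 3.98 to 5.23 in PZ, 23.3-fold higher. F13a1, the transglutaminase subunit of factor XIII that macrophages also make, was 7.18 to 9.04 in HZ and 4.26 to 4.49 in PZ, lowest of HZ on array 1. The laminin receptor Itga7 (3.92 ± 0.18), the lipase Lipg (3.57 ± 0.26), the adhesion receptor Adgrf5 (3.49 ± 0.16) and the kinase Pim1 (3.32 ± 0.13) complete the rises. H2-Q10, of a family of class I genes with near-identical copies, was 10.49 to 11.43 in HZ and 4.49 to 7.14 in PZ (5.47 ± 0.35), but its other probe set was not called (-0.32), and its identity is uncertain. Among the falls, the matrix protein Tgfbi was 5.94 to 7.0 in HZ (median 6.53) and 9.28 to 10.31 in PZ (median 10.03), 10.9-fold lower. Cmtm5 was 4.24 to 4.56 in HZ and 7.49 to 8.03 in PZ, C1qtnf3, a secreted protein of growth plate cartilage, was 6.42 to 7.83 in HZ and 9.99 to 10.89 in PZ, and the netrin receptor Unc5c was 4.69 to 5.43 in HZ and 8.0 to 8.46 in PZ. Ecrg4, Slc35e3, Sorbs2, Efcab1, Arsj, Zfp648 and Thbs3 fell by 2.68 to 3.30 without overlap.

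**Figure D4:**
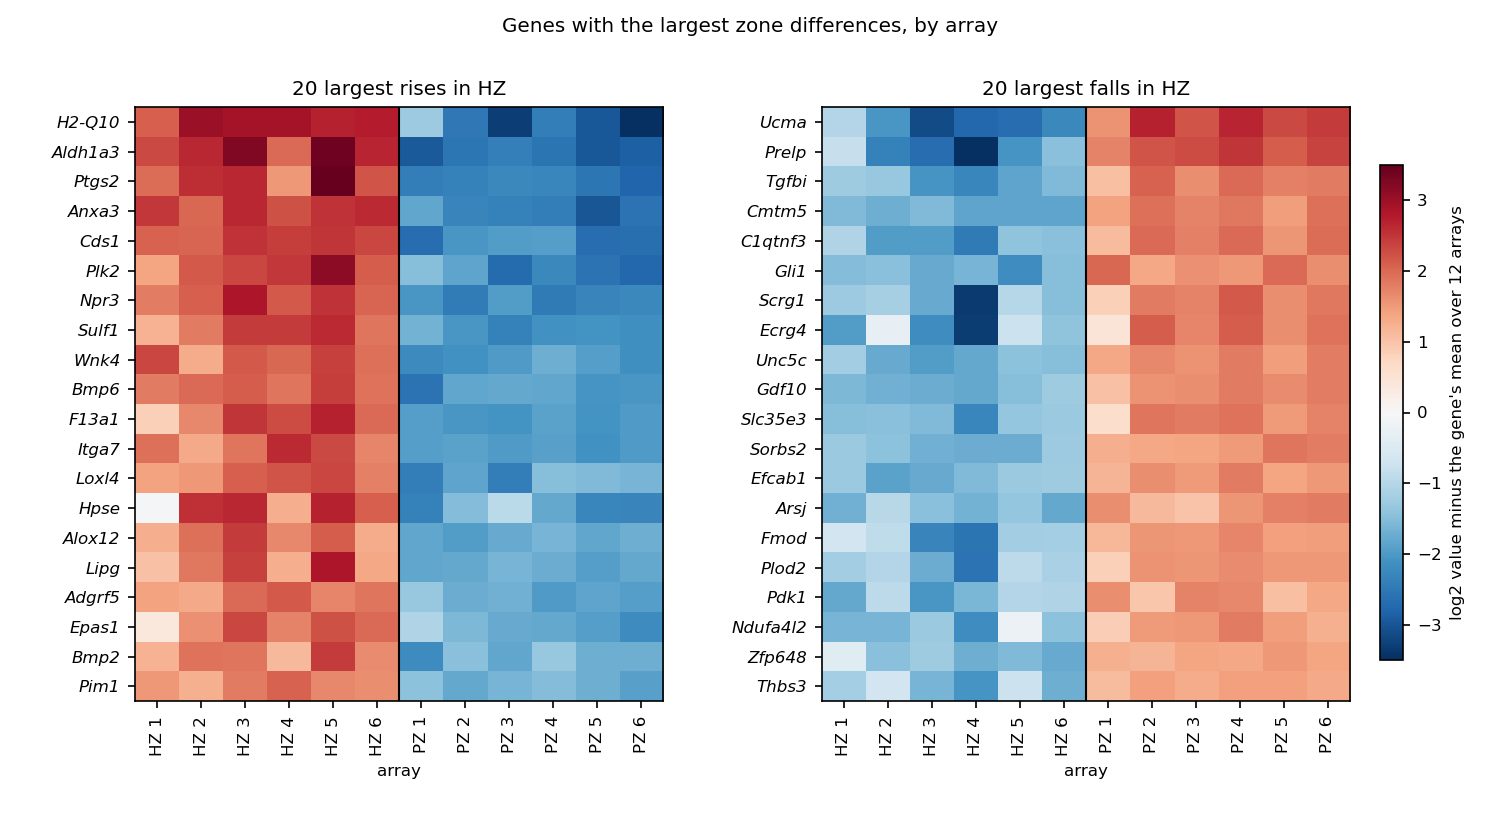
Log2 value of each gene minus its mean over the 12 arrays, for the 20 largest rises (left) and the 20 largest falls (right) in HZ, with the 6 HZ arrays left of the 6 PZ arrays. Every row separates the zones because genes without overlap were chosen, with predicted genes, microRNAs and small nucleolar RNAs left out. HZ array 1 is the palest HZ column in Hpse, F13a1 and Epas1.

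Of 483 microRNA genes, 61 were higher and 43 lower in HZ, smaller shares than the 15.8% and 17.1% of all genes, with a median difference of 0.12. Such a probe set can reflect the precursor or its host and does not measure the mature microRNA. Mir140, which lies in the cartilage gene Wwp2, was 5.07 to 6.64 in HZ (median 5.84) and 8.30 to 9.43 in PZ (median 8.74), 7.55-fold lower, and Wwp2 itself was 7.46 to 8.80 in HZ and 8.97 to 9.45 in PZ (-0.89 ± 0.18), a call that quantile normalization ended. Mir181b-1 was 6.91 to 9.02 in HZ (median 8.32) and 4.43 to 5.55 in PZ (median 5.05), and its neighbour Mir181a-1 was 4.08 to 8.14 in HZ (median 7.75) and 3.19 to 4.32 in PZ (median 3.43), overlapping through HZ array 4. Mir181a-2, from another chromosome, was 4.35 to 5.62 in HZ and 3.43 to 4.21 in PZ. Mir17 (-2.01 ± 0.28) and Mir18 (-1.69 ± 0.25), of 1 cluster, were lower without overlap. These genes were chosen after their values were seen. The mature sequences in RefSeq (GRCm38.p6) are shown with the seed, bases 2 to 8, in capitals. The 5p arms of both mir-181 types share the seed ACAUUCA, and the 3 sequences of the falling genes have other seeds.
miR-181a-5p: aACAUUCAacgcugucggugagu
miR-181b-5p: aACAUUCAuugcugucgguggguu
miR-140-3p: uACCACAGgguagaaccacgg
miR-17-5p: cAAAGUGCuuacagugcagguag
miR-18a-5p: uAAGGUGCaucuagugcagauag

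**Figure D5:**
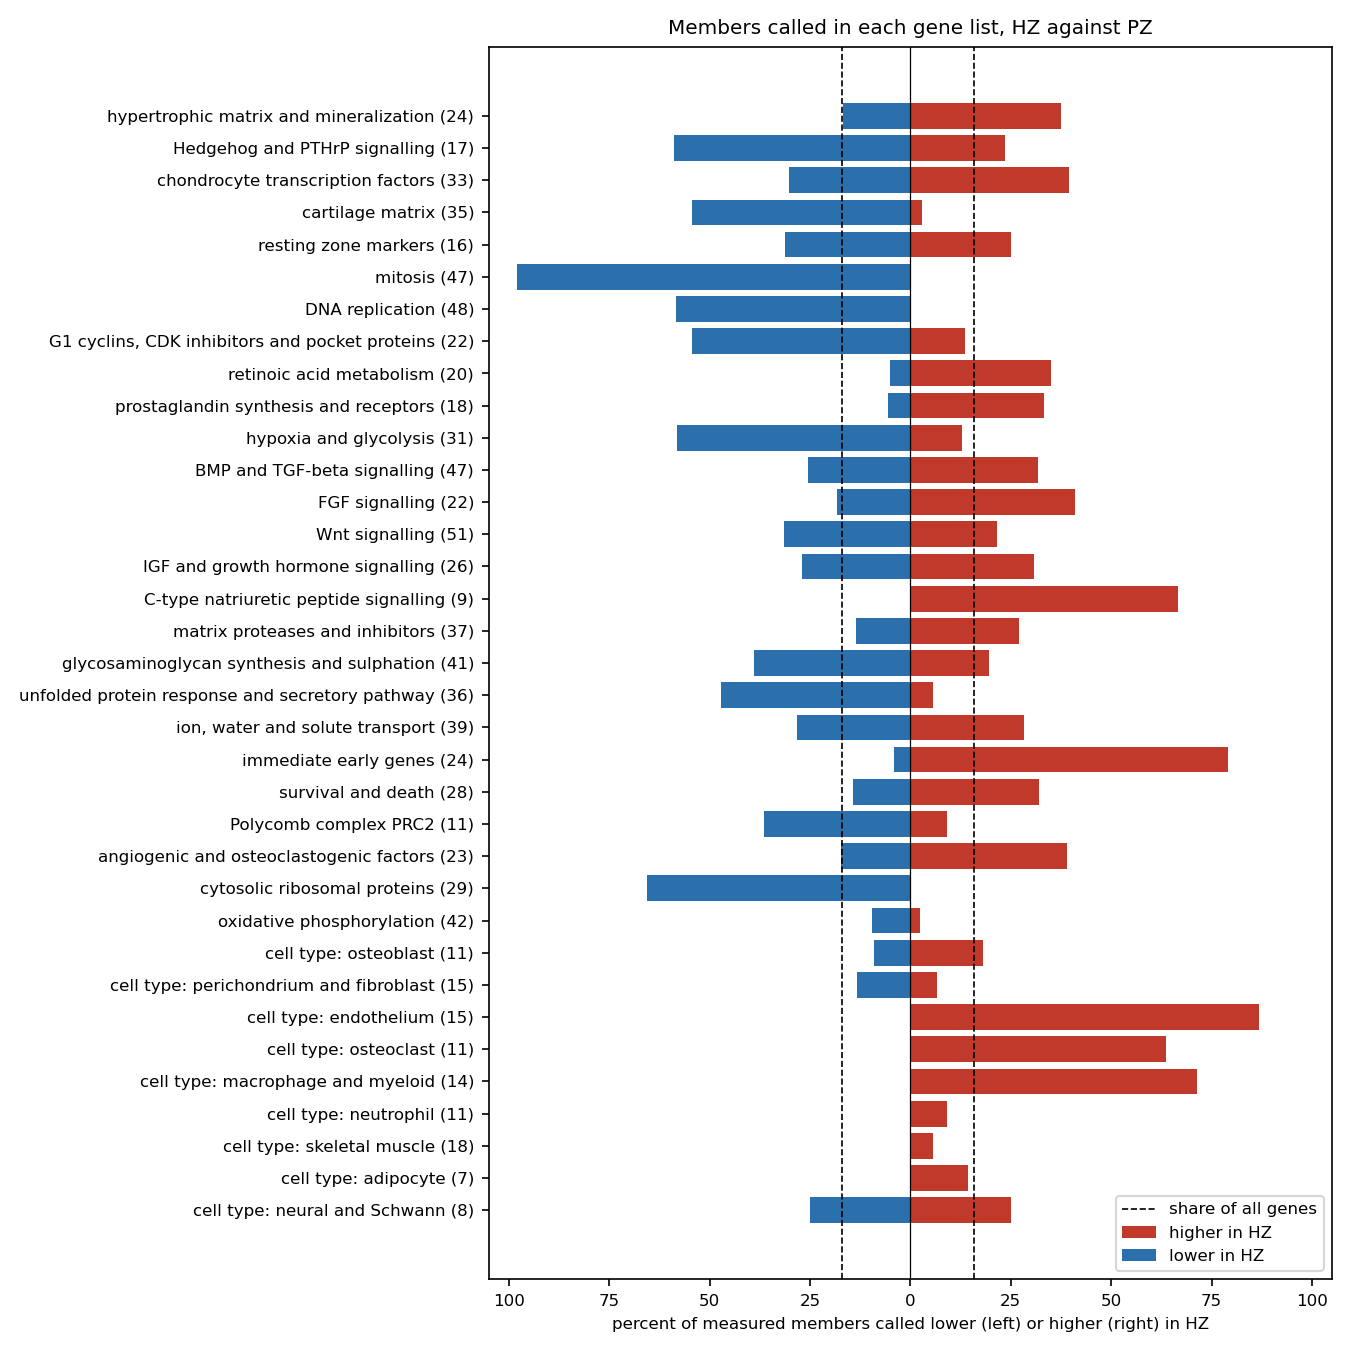
Percent of the measured members of each gene list called lower (left, blue) or higher (right, red) in HZ, without the zone marker, sex-linked and erythroid lists, with the number of members measured in brackets and dashed lines at 17.1% and 15.8% of all genes. Of the lists drawn, mitotic genes reach furthest to the left and endothelial, immediate early and myeloid genes furthest to the right.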

How the data were processed

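Cartilage of the HZ and PZ was cut by laser capture from mice aged 3 days, and its RNA was amplified and hybridized to Affymetrix mouse gene arrays. The authors deposited log2 expression values per probe set, normalized by robust multi-array averaging (RMA); the scanner files were not used here, so whether a probe set lies above background is unknown, and array number limits the precision. Of 41345 probe sets, 23521 had 1 gene symbol in the platform annotation, 1820 several and 16004 none, and 23328 matched a current gene record. Each of 22180 genes was represented by its brightest such probe set. The zones were compared with limma 3.58.1 (R 4.3.3), with zone as the only term, and p-values were adjusted by Benjamini and Hochberg's method across the whole table. For the 166 named genes without overlap, the two-sided exact permutation p was 0.0022, the smallest that 6 against 6 arrays allow. Any gene without overlap has this value, so it adds nothing to the lack of overlap. The methods describe both zones of the same 6 animals, but the array numbers did not pair them, so p-values treat the 12 arrays as independent and measure the spread between these arrays. The limma step was tested on simulated data.

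Members and the 38 gene lists were chosen with earlier results of these data known. Named genes were the 20 largest rises and falls without overlap, the zone markers, in each list at most the 8 genes of smallest p, genes the paper names for the zones, and markers of other cells. The ranking of rises and falls left out predicted and clone-named genes, microRNAs, small nucleolar RNAs, and olfactory, vomeronasal and immune receptor segments. A further 41 of the 201 named genes were chosen after their values were seen. Alternatives were blocks by array number, other variance models, quantile normalization or median centring, filters on dim or unnamed probe sets, other thresholds, the mean of a gene's probe sets, and arrays left out, of which leaving out HZ array 1 and PZ array 1 together was chosen after seeing the data. Fold changes and p-values of the authors' own comparisons were not used.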

Additional observations from a re-analysis of the deposited data

Results flagged for a closer look

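Some single arrays stood apart from the other 5 of their zone, by a gap to the nearest array that exceeded Dixon's critical share of the range of the zone. Of 402 groups of 6 tested for the 201 named genes, 47 in 45 genes were so marked, and chance marks about 1 in 20 groups. PZ array 1 accounted for 22, HZ array 1 for 12 and HZ array 4 for 8. All values are log2 expression values. HZ array 1 was lowest of its zone for Acp5 6.71, Bmpr1a 5.03, Dusp6 5.46, Epas1 6.42, Irs2 7.39, Junb 5.48, Mgp 10.004, Mmp13 8.39, Mmp9 6.91, Smad7 6.57, Tnfsf11 3.58 and H2-Q10 10.49. HZ array 4 was the low array for Cnmd 8.94, Mir181a-1 4.08, Mir181a-2 4.35, Panx3 10.08, Papss1 4.26, Rb1 6.58, Scrg1 5.64 and Slc35e3 5.05. On PZ array 1, low values stood apart for Bmp6 4.58, Bmpr1a 6.26, Cdkn1c 6.41, Chst11 9.37, Egln1 6.77, Epyc 9.27, Gdf10 7.51, Hapln1 10.93, Hif1a 7.78, Lgr4 7.31, Nkx3-2 4.99, Papss2 9.68, Plod2 9.94, Ppa1 8.41, Scube2 5.52, Slc26a2 8.01, Ecrg4 8.32 and Slc35e3 7.94. The same array was highest of PZ for Cdh5 6.12, Emcn 5.81, Igf1 6.45 and Igfbp5 5.77. The remaining values were Wwp2 on HZ array 2 (lowest, 7.46), Myc on HZ array 5 (lowest, 5.31), Adamts1 on HZ array 5 (highest, 7.86), Fgfr2 on PZ array 2 (highest, 6.68) and Anln on PZ array 3 (lowest, 6.66). PZ array 1 also had the highest endothelial (4.71) and osteoclast (5.74) list means of PZ, and HZ array 1 the lowest endothelial (4.49) and osteoclast (5.32) list means of HZ. The part of such cells in the marked values was not tested.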

How the results depend on the processing

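Over all probe sets, 5852 were higher and 6297 lower in HZ. The count higher was 1885 among probe sets with a mean of at least 5, where fewer were tested, 996 at a difference of at least 1 log2, and 2162 at an unadjusted p under 0.001 with a fold change over 1.3. The count lower was 2331 at a difference of at least 1 log2 and 3624 at that unadjusted threshold. Leaving out each array in turn gave 4132 to 6625 higher and 5357 to 6510 lower. Array numbers did not pair the zones: the correlation of same-numbered arrays' deviations was -0.13 to 0.28, only numbers 1 and 2 matched best with themselves, and the sex-linked genes differed within numbers 3 (Xist 10.5 in HZ, 3.35 in PZ) and 5 (Xist 3.91 in HZ, 10.97 in PZ). The replicate block gave 4949 higher and 6389 lower, and the block with numbers 3 and 5 left out gave 2086 higher and 4235 lower from fewer arrays, with 2 of 15 endothelial, 1 of 11 osteoclast, 10 of 29 cytosolic ribosomal and 15 of 48 replication genes called, and smaller counts in other lists too, such as 3 of 22 FGF and 5 of 24 hypertrophic matrix genes higher. Of 182 called genes named here, 179 kept their call without each array in turn, the exceptions being Ibsp, Acp5 and Hif1a, and 163 under every other alternative. None reversed. The block with numbers 3 and 5 left out ended the calls of Acp5, Cdh5, Cyp26a1, Dusp6, Emcn, Fgfr3, Hdac4, Ibsp, Igfbp3, Mmp13, Mmp9, Ppa1, Rarb, Rb1, Sox9, Sp7 and Tnfsf11. Quantile normalization ended those of Cyp26a1, Fgfr3, Sp7 and Wwp2, the mean of probe sets that of Rb1, leaving out HZ arrays 1 and 4 those of Cyp26a1, Hif1a and Ibsp, and the unmoderated test and the weights by zone those of Acp5 and Ibsp. Ibsp was also lost with weights for each array, median centring and the replicate block of all 6 numbers. Genes not called changed sign: Mgp (0.12 without HZ arrays 1 and 4, and -0.34 to 0.14 over arrays left out in turn), Col2a1 (-0.15 to 0.0207 over arrays left out), Npr2 (0.16 after quantile normalization), Cyp26c1 (-0.0095 after median centring, -0.0937 after quantile normalization, and -0.0199 to 0.0802 over arrays left out) and Ezh1 (-0.0042 without HZ arrays 1 and 4). Some of the 19 named genes not called gained a call, at most 3 in any setting. These were 3 without HZ array 1 and PZ array 1. There were 2 each with the replicate block, the mean of probe sets and the filter on a mean of at least 5. The causes were not tested. Depth has no counterpart on arrays, and dim genes are bounded by an unknown background.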

Other observations

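Genes that host or encode small nucleolar RNAs, which guide the modification of ribosomal RNA, were lower in HZ. These families were chosen after their values were seen. Of 15 small nucleolar RNA host genes (Snhg), 12 were lower and none higher, with a median difference of -1.79 against 0.09 over all genes, and the count was 12 after quantile normalization and 12 without HZ arrays 1 and 4. Of 47 box C/D small nucleolar RNAs 28 were lower and 2 higher (median -0.75), and of 26 box H/ACA small nucleolar RNAs 16 were lower and none higher (median -0.66). After quantile normalization 23 box C/D and 10 box H/ACA RNAs were lower. Members share host transcripts, so they are not independent.

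Among 16 markers of the resting zone, the reserve of early chondrocytes next to the PZ, 4 were higher and 5 lower in HZ. These shares were 25% and 31.2%, against 15.8% and 17.1% of all genes, with a median difference of 0.06. Ucma, Gdf10 and Sfrp5 were among the lower. The 4 that were higher were Wif1 (1.78), Clu (0.76), Apoe (0.53) and Gas1 (0.49). These 4 are outside the 201 named genes counted above.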
